A study of Homo sapiens with 20 samples.

Results

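Human embryonic stem cells of a line called KO2, labelled as a knockout of the long noncoding RNA DIGIT, were compared with wild-type cells (WT) of their parent line H1 after 4 days of differentiation towards endoderm. H1 is an established human embryonic stem cell line, and KO2 is 1 of 2 knockout lines of the study, the other being KO1. How the knockouts were made, and whether each line is 1 clone, is not given in the sources used here. The comparison rests on 4 of the 12 RNA-seq libraries of the study, 2 of KO2 and 2 of WT, and covers every feature of their count tables: 54435 features, of which 28251 had at least 1 count in the 12 libraries and 16792 had enough counts to be tested. Day 4 cells had been kept in RPMI medium with B27 supplement and 50 ng/ml Activin A. Day 0 cells, sampled from WT, KO1 and KO2, were undifferentiated and grown in mTeSR1. Each line and day has 2 libraries, and the labels do not say whether these came from separate cultures, so p values measure only the spread between the libraries of a line.

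Definitive endoderm is the germ layer that gives rise to gut, liver, pancreas and lung. In culture it is obtained from embryonic stem cells with Activin A, which stands in for Nodal: the ligand binds activin receptors, SMAD2 and SMAD3 are phosphorylated, and with SMAD4 and partners such as FOXH1 and EOMES they switch on a first set of mesendoderm genes and then GSC, SOX17, FOXA2 and GATA factors. Pluripotency genes such as POU5F1 and SOX2 are turned down as the cells leave the stem cell state. DIGIT lies next to GSC, which encodes a homeodomain factor of the organizer and early endoderm.

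The 4 libraries held 12839236 to 15411604 counts, and a floor of 3 counts equalled 0.193 to 0.241 CPM (counts divided by the scaled total of the library and put on a common scale). The 2 libraries of WT at day 4 differed by a chi-square of 3.52 per feature and those of KO2 by 2.17, while the KO1 day 0 pair stood apart with 22. No feature carries the name DIGIT, so the knockout could not be checked on its own transcript and KO2 is used as the label has it. GSC, the neighbouring gene, was present and is described with the endoderm genes. Levels are CPM per library, a difference is a log2 fold change of KO2 over WT, and a feature is called when its adjusted p is below 0.05 (edgeR's quasi-likelihood test with Benjamini-Hochberg adjustment over the 16792 features).

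At day 4, 2266 features were higher in KO2 (13.5% of those tested) and 2431 were lower (14.5%). The large differences were mostly on the lower side. At least 2-fold changes were found in 242 higher features (1.44%) and 824 lower ones (4.91%), at least 4-fold in 29 and 255, and at least 8-fold in 7 and 83. The median log2 fold change of all tested features was 0.0094. Of listed definitive endoderm genes 33 of 36 tested were lower, and of listed pluripotency genes 22 of 33 were higher. Leaving out WT replicate 1, WT replicate 2, KO2 replicate 1 or KO2 replicate 2, in this order, left 943, 1298, 1203 and 1087 higher features and 1549, 1880, 1656 and 1412 lower ones. Counts given below for leaving out each library follow the same order. Without the KO1 day 0 pair, which enters through the shared spread, the filter on low counts and the scaling, 3158 and 3430 were called. In bulk RNA, fewer cells of a type and less RNA per cell cannot be told apart.

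**Figure D1:**
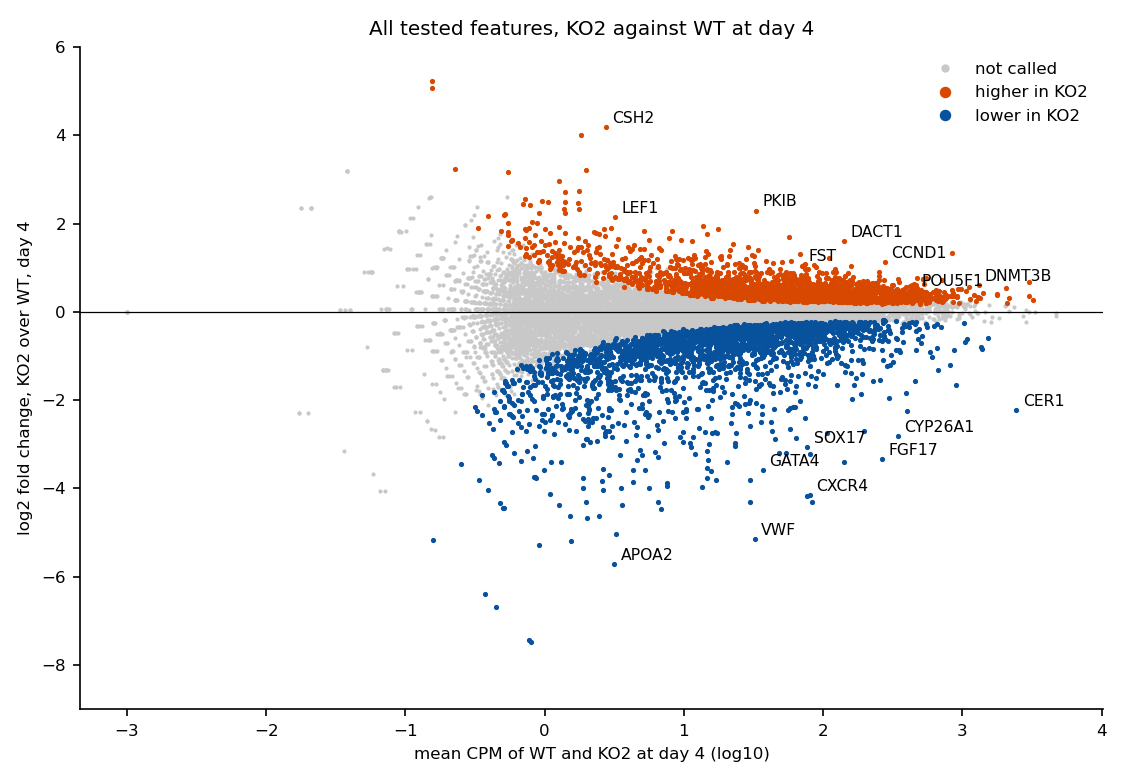
Log2 fold change of KO2 over WT at day 4 (vertical axis) against the mean CPM of the 4 libraries on a log10 axis, 1 point per tested feature, 2266 called higher, 2431 called lower and the rest not called. The called features extend further below 0 than above it, and the labelled endoderm genes CXCR4, GATA4, SOX17 and CER1 lie below -2.

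The markers of the cell state differed in KO2 in both directions. CXCR4, the chemokine receptor used to sort definitive endoderm, was at 164 and 139 CPM in the WT libraries and at 10.0 and 7.09 CPM in KO2, a log2 fold change of -4.16 ± 0.16 (SE, adjusted p = 1.7e-10). SOX17, the factor that commits cells to endoderm, was at 147 and 129 CPM in WT and 17.6 and 15.4 CPM in KO2, a log2 fold change of -3.07 ± 0.14 (SE, adjusted p = 1.2e-09). GATA4, a zinc-finger factor of endoderm and heart, was at 72.5 and 63.6 CPM and 6.10 and 5.29 CPM, with a log2 fold change of -3.58 ± 0.13 (SE, adjusted p = 1.7e-10). For these 3 genes both KO2 libraries lay far below both WT libraries. Undifferentiated KO2 cells held 3.18 and 1.86 CPM of CXCR4, 1.03 and 0.196 CPM of SOX17 and 0.187 and 0.196 CPM of GATA4, so the day 4 KO2 libraries were above the day 0 ones for CXCR4, SOX17 and GATA4 although far below WT. POU5F1, which encodes OCT4, went the other way, from 378 and 389 CPM in WT to 513 and 567 CPM in KO2 (log2 fold change 0.49 ± 0.07 SE, adjusted p = 0.00018). FST, which encodes the Activin-binding protein follistatin and was listed as an endoderm marker, was also higher in KO2, at 86.6 and 103 CPM against 45.5 and 46.3 CPM (log2 fold change 1.05 ± 0.11 SE, adjusted p = 4.0e-06). The KO2 and WT libraries did not overlap for any of the 5 markers, as was the case for 69.1% of all tested features.

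**Figure D2:**
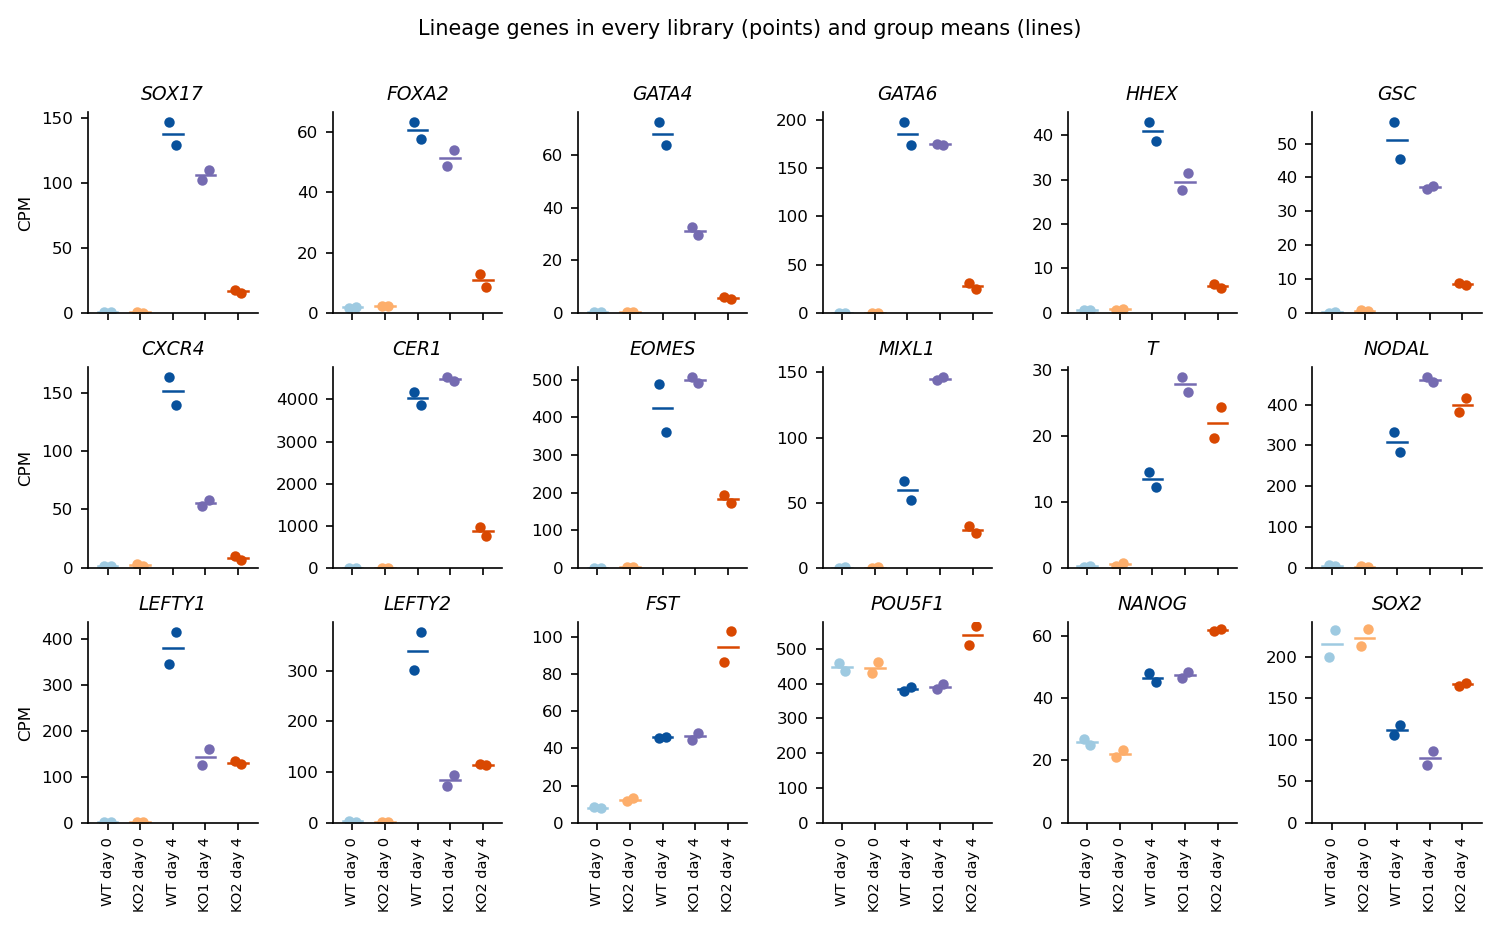
CPM of 18 lineage genes (vertical axes, from 0) in each library (points) with the group mean (lines), for WT and KO2 at day 0 and WT, KO1 and KO2 at day 4. SOX17, FOXA2, GATA4, GATA6, HHEX, GSC, CXCR4 and CER1 are near 0 at day 0, high in WT at day 4 and low in KO2 at day 4, while FST, POU5F1, NANOG and SOX2 are higher in KO2 than in WT at day 4.

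Of 38 genes listed as definitive endoderm genes, 36 had enough counts to be tested, 33 were lower in KO2 and 1, FST, was higher, with a median log2 fold change of -2.36 against 0.0094 for all features. The share lower was 91.7% against 14.5% of all features, and the share higher 2.78% against 13.5%. The summed level of the list was 6619 to 7198 CPM in WT and 1601 to 1865 CPM in KO2. CER1 alone held 4188 and 3875 CPM of it in WT and 967 and 765 CPM in KO2. Among the transcription factors, GATA6 was at 198 and 174 CPM in WT and 31.1 and 24.2 CPM in KO2, a log2 fold change of -2.75 ± 0.12 (SE, adjusted p = 9.6e-10). FOXA2, a pioneer factor that opens endoderm enhancers, was at 63.4 and 57.7 CPM and 12.8 and 8.63 CPM (log2 fold change -2.51 ± 0.15 SE, adjusted p = 1.4e-08). HHEX, an early factor of foregut and liver bud, was at 43.0 and 38.8 CPM and 6.58 and 5.69 CPM (log2 fold change -2.74 ± 0.22 SE, adjusted p = 3.9e-07). All 3 were lower in both KO2 libraries than in either WT library, as were 33.4% of all tested features. GSC, the neighbour of DIGIT, was at 56.4 and 45.6 CPM in WT and 8.83 and 8.23 CPM in KO2 (log2 fold change -2.58 ± 0.21 SE, adjusted p = 4.8e-07). LHX1, a LIM homeodomain factor of the anterior mesendoderm, had a log2 fold change of -2.85, and PRDM1, a zinc-finger repressor, of -3.21. OTX2, a head and anterior endoderm factor, had -1.50 and FOXA1 -1.47. Of secreted and surface proteins, CER1, a Nodal and BMP antagonist, was at 4188 and 3875 CPM in WT and 967 and 765 CPM in KO2 (log2 fold change -2.22 ± 0.17 SE, adjusted p = 2.4e-07). CXCR7, the second receptor for the CXCR4 ligand, fell from 59.7 and 52.5 to 4.81 and 3.21 CPM, and the receptor tyrosine kinase KIT from 174 and 162 to 86.1 and 77.6 CPM. FOXA3 was called with a small log2 fold change of -0.46, and its call was lost without WT replicate 1 (-0.39, adjusted p = 0.14) and without KO2 replicate 2 (-0.36, adjusted p = 0.19). GATA3 (-0.31, adjusted p = 0.46) and ANXA3 (0.24, adjusted p = 0.17) did not pass the test. TTR had no count in the 4 libraries, and the other untested list member had at most 4. With each of the 4 libraries left out in turn, 31 to 33 list members were called lower.

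Of the 15 largest decreases among named genes with at least 5 CPM in WT, 14 are described here. They ranged from a log2 fold change of -5.71 to -3.88 and included CXCR4. APOA2, an apolipoprotein of the later liver, had 177 counts in the WT libraries and 3 in KO2, which is 56.5 times as much in WT per scaled total (95% interval of the counts 19 to 276). VWF, von Willebrand factor of endothelium and platelets, was at 66.7 and 59.0 CPM in WT and 2.33 and 1.27 CPM in KO2 (log2 fold change -5.15 ± 0.23 SE, adjusted p = 9.6e-10). SLC40A1, the iron exporter ferroportin, was at 12.2 and 14.1 CPM and 0.642 and 0.535 CPM. Of VWF and SLC40A1, KO2 cells thus held at most 2.33 CPM. COLEC12, a scavenger receptor, was at 169 and 149 CPM and 9.07 and 7.09 CPM (log2 fold change -4.30 ± 0.13 SE, adjusted p = 5.2e-11). CCKBR, the gastrin receptor, was at 157 and 132 CPM in WT and 8.67 and 7.36 CPM in KO2, where undifferentiated KO2 cells had 11.1 and 11.9 CPM. LINC00261, a long noncoding RNA next to FOXA2, was at 60.1 and 54.1 CPM and 3.21 and 2.61 CPM (log2 fold change -4.30 ± 0.16 SE, adjusted p = 1.7e-10). ARHGAP24, a GTPase-activating protein, PLCE1, a phospholipase C, SLC5A9, a sugar transporter, and MOBP, a gene first known from myelin, had log2 fold changes of -4.30, -3.97, -3.94 and -3.88. NR0B1, an orphan nuclear receptor, had -3.99 and C3, the central complement protein, -3.99. C3 was already at 9.10 and 7.21 CPM in WT at day 0, close to its 11.7 and 9.60 CPM at day 4, and fell to 1.04 and 0.335 CPM in KO2. LRRC61, a leucine-rich repeat protein gene that overlaps ACTR3C in the reference table, fell to 0.160 and 0.468 CPM from 5.80 and 7.99 CPM, and was called lower in KO2 at day 0 too (2.06 and 3.13 CPM against 13.0 and 9.47 CPM), a call kept in 2 of the 4 fits that left out a WT or KO2 library of day 0. ARHGAP24, PLCE1, COLEC12 and VWF also overlap other gene models, and reads of overlapping models cannot be told apart if the counting did not use strand, which the sources used here do not give.

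**Figure D3:**
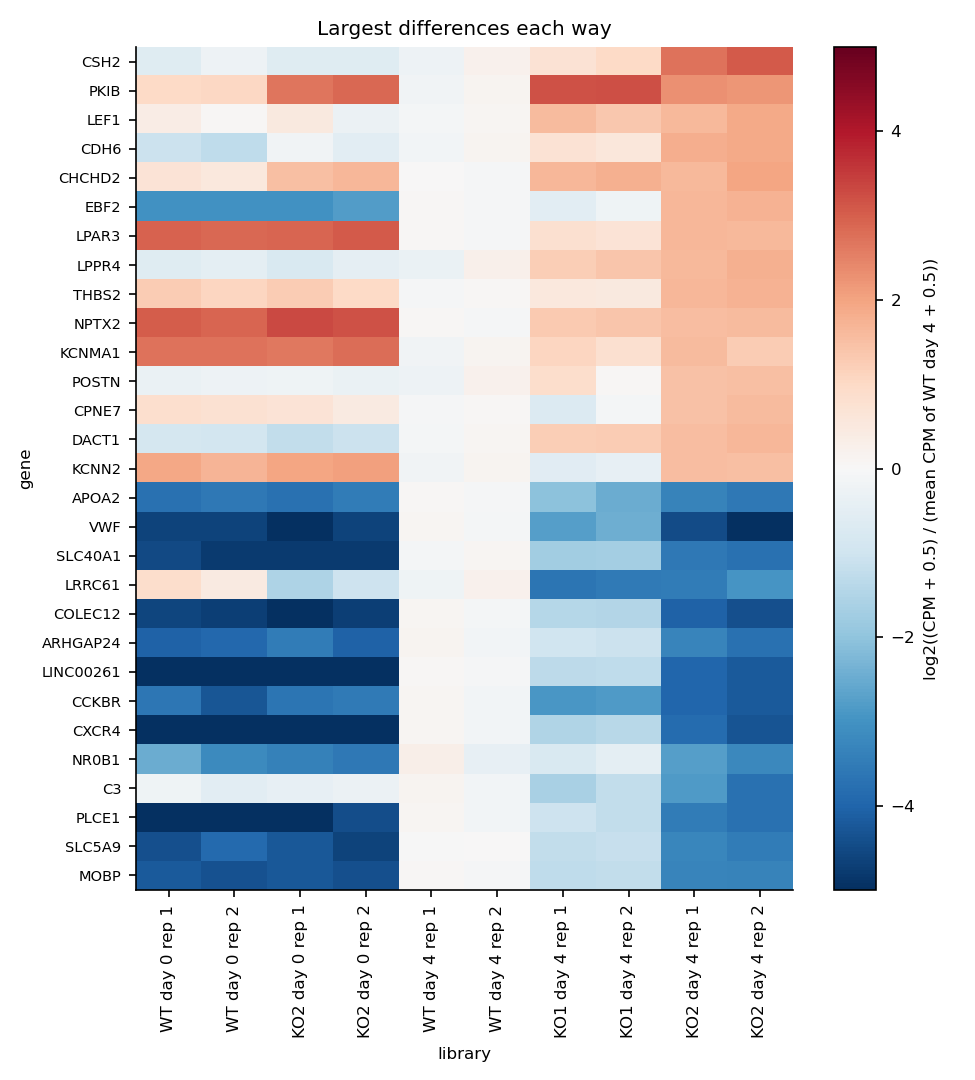
The 15 largest increases (upper rows) and 14 of the 15 largest decreases (lower rows) among named genes, as log2 of CPM + 0.5 relative to the WT day 4 mean, in each of 10 libraries (columns). Among the decreased genes KO2 at day 4 is dark blue in every row and KO1 is paler in every row except LRRC61, and the KO2 and WT libraries of PKIB, CHCHD2 and LRRC61 lie apart at day 0 too.

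The promoters of these genes were read for short letters that forkhead, GATA, SOX and SMAD factors are known to bind, because genes of the first 3 families (FOXA2, GATA4, SOX17) were lower in KO2. Of the 15 largest decreases, 11 matched a RefSeq promoter by name, with 14 listed start sites. The forkhead letters TGTTTAC (either strand) occurred within 250 bases before 3 of these 14 starts (21.4%), those of APOA2, LINC00261 and PLCE1, against 2.13% of 16444 starts of 11159 tested genes. They occurred before 0 of 15 starts of the 10 matched genes among the 15 largest increases. GATAA was found before 28.6% of the starts of the lowered genes, 26.7% of those of the raised genes and 14.4% of all. For ACAAT the shares were 14.3%, 26.7% and 16.5%, and for CAGACA 21.4%, 26.7% and 11.2%. The palindrome GTCTAGAC was before none of the starts of either set and before 0.158% of all. A match describes the letters and does not show that a factor binds there. The 3 stretches with the forkhead letters are shown because their genes were among the largest decreases. Each gives 250 bases up to the start site, 5′ to 3′ on the gene's strand, from RefSeq on GRCh38.p14, with capitals for the forkhead letters (GTAAACA is TGTTTAC on the other strand) and, where it is present, the SMAD letters CAGACA. APOA2 is from chr1:161223629-161223878 (minus strand), LINC00261 from chr20:22578643-22578892 (minus strand) and PLCE1 from chr10:94088776-94089025 (plus strand).
APOA2: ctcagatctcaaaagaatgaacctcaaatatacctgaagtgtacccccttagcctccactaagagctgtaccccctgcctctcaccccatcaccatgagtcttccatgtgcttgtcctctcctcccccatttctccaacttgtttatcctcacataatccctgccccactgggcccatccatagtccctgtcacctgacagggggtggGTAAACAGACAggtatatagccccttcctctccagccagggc
LINC00261: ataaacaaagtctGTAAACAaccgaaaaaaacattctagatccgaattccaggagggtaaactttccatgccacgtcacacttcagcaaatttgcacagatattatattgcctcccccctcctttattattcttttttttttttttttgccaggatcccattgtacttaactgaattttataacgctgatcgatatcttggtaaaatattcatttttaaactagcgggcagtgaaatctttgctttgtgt
PLCE1: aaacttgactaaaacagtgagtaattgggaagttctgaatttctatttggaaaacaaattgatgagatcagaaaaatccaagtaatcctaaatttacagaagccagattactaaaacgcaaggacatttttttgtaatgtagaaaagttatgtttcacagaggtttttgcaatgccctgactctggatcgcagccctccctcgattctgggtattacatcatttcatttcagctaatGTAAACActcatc

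In APOA2 the forkhead letters begin 42 bases before the start and the SMAD letters overlap them, beginning at 37. In LINC00261 they begin 237 bases before the start and in PLCE1 13. The CPM of all 3 genes were below 1 at day 0 in WT and KO2, above 5 in both WT libraries at day 4, and at most 3.21 in KO2.

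Genes of the primitive streak, the stage that precedes endoderm, did not move as 1 group. Of 20 listed genes, 18 were tested, 11 were lower in KO2 and 2 were higher, with a median of -0.70. The share lower was 61.1% against 14.5% of all features, and the share higher 11.1% against 13.5%. EOMES, the T-box factor that drives endoderm genes with SMADs, was at 488 and 361 CPM in WT and 192 and 173 CPM in KO2 (log2 fold change -1.21 ± 0.13 SE, adjusted p = 5.5e-06). MIXL1, a homeodomain factor of the streak, was at 67.0 and 52.3 CPM and 32.1 and 26.5 CPM (log2 fold change -1.03 ± 0.13 SE, adjusted p = 3.2e-05). FGF17 had the largest decrease of the list, from 520.1 and 449 CPM to 54.8 and 42.0 CPM (log2 fold change -3.33 ± 0.13 SE, adjusted p = 2.4e-10), and FGF8 had -0.92. T (brachyury), the T-box factor of streak and mesoderm, was higher in KO2, at 19.7 and 24.3 CPM against 14.6 and 12.3 CPM (log2 fold change 0.72 ± 0.15 SE, adjusted p = 0.0028). The call for T was lost without WT replicate 2 (0.58, adjusted p = 0.055) and without KO2 replicate 2 (0.55, adjusted p = 0.065). T thus went up where EOMES and MIXL1 went down. Leaving out each library left 2, 0, 2 and 0 called higher members.

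In the Nodal and Activin pathway, 3 secreted inhibitor genes were lower in KO2 (LEFTY1, LEFTY2 and CER1) and 1, FST, was higher. Of 29 listed genes 27 were tested, with 7 lower, 2 higher and a median of -0.03. These shares were 25.9% lower and 7.41% higher, against 14.5% and 13.5% of all features. The ligand gene NODAL was at 332 and 285 CPM in WT and 382 and 416 CPM in KO2 (log2 fold change 0.37 ± 0.11 SE, adjusted p = 0.016), a call that was lost without WT replicate 2 (0.25, adjusted p = 0.21) and without KO2 replicate 2 (0.31, adjusted p = 0.15), after which FST was the one higher member. The secreted inhibitors LEFTY1 and LEFTY2, near-identical genes between which reads may have been split or lost, were both lower. LEFTY1 was at 346 and 416 CPM in WT and 134 and 128 CPM in KO2 (log2 fold change -1.54 ± 0.19 SE, adjusted p = 2.8e-05), and LEFTY2 at 301 and 377 CPM and 116 and 113 CPM (log2 fold change -1.56 ± 0.18 SE, adjusted p = 1.6e-05). Both KO2 libraries lay below both WT libraries for these 2 genes, as for 33.4% of all tested features. Among the transducers the log2 fold changes were small. FOXH1, the SMAD partner, had -0.46 and the receptor gene ACVR1B -0.38, while SMAD2 (-0.17), SMAD3 (0.26) and SMAD4 (0.10) did not pass the test. The ACVR1B call was lost without WT replicate 1 (-0.30, adjusted p = 0.102) and without KO2 replicate 2 (-0.34, adjusted p = 0.092). FURIN, a protease that cleaves the Nodal precursor, had -0.62, and TDGF1, the Nodal coreceptor, had -0.35, a call lost without WT replicate 1 (-0.25, adjusted p = 0.17), without KO2 replicate 1 (-0.37, adjusted p = 0.069) and without KO2 replicate 2 (-0.35, adjusted p = 0.091).

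Of 23 BMP pathway genes 21 were tested, 7 were lower in KO2 and 3 higher. The share higher, 14.3%, was near the 13.5% of all features, and the share lower was 33.3% against 14.5%. The lower genes included ligands, an antagonist and targets. BMP2 was at 116 and 84.1 CPM in WT and 16.9 and 14.7 CPM in KO2 (log2 fold change -2.66 ± 0.15 SE, adjusted p = 1.2e-08), and BMP7 had -1.79. The inhibitory SMAD6 had -1.48, the target MSX2 -1.56 and the antagonist CHRD -1.35. The antagonist GREM1 was higher, at 41.9 and 42.6 CPM against 27.2 and 26.4 CPM (log2 fold change 0.66 ± 0.14 SE, adjusted p = 0.00301). GREM1 overlaps an antisense gene in the reference table. With each library left out there were 1, 1, 1 and 2 higher members, GREM1 in every case.

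Of 41 WNT pathway genes 40 were tested, 19 were lower and 7 higher, with a median of -0.38. These were 47.5% and 17.5%, against 14.5% lower and 13.5% higher of all features. Omitting each library left 13, 19, 15 and 12 lower and 4, 7, 7 and 6 higher members. Among the Frizzled receptor genes 4 were lower by at least 2-fold, FZD8 with -2.01, FZD7 with -1.09, FZD5 with -1.09 and FZD1 with -1.02. LGR5, the R-spondin receptor, was at 31.4 and 22.5 CPM in WT and 1.77 and 2.74 CPM in KO2 (log2 fold change -3.55 ± 0.28 SE, adjusted p = 2.6e-07). Secreted antagonists were lower too, FRZB with -2.95, SFRP1 with -1.84 and DKK1 with -1.61. In contrast SFRP2 had 0.49, WNT5A 0.97 and FZD10 0.79, the last losing its call without WT replicate 1 (0.70, adjusted p = 0.0696) and without KO2 replicate 2 (0.70, adjusted p = 0.069). LEF1, a nuclear partner of beta-catenin, was at 1.07 and 1.29 CPM in WT and 4.65 and 5.82 CPM in KO2 (log2 fold change 2.14 ± 0.29 SE, adjusted p = 7.4e-05). DACT1, which binds dishevelled, was at 65.3 and 75.1 CPM and 204 and 223 CPM (log2 fold change 1.60 ± 0.09 SE, adjusted p = 7.5e-09). AXIN2, a common target gene of the pathway, was at 97.2 and 82.5 CPM and 69.2 and 75.2 CPM (-0.31), and its call was lost without WT replicate 1 (-0.21, adjusted p = 0.32), without KO2 replicate 1 (-0.27, adjusted p = 0.22) and without KO2 replicate 2 (-0.38, adjusted p = 0.097).

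FGF genes went both ways, with 9 of 25 lower (36%) and 7 higher (28%). Beside FGF17 and FGF8, the feedback phosphatase gene DUSP4 had -1.82, SPRED2, an inhibitor of RAS signalling, -1.02 and the ETS factor gene ETV5 -0.89. FGF2, the ligand that maintains stem cell cultures, was at 81.2 and 91.4 CPM in WT and 166 and 158 CPM in KO2 (0.91, adjusted p = 0.0018). FGF19 had 1.19, at 13.7 and 12.1 CPM in KO2 and 5.11 and 6.12 CPM in WT. In the retinoic acid pathway 17 of 20 genes were tested, with 5 lower (29.4%) and 2 higher (11.8%). CYP26A1, the enzyme that breaks down retinoic acid, was at 644 and 558 CPM in WT and 95.7 and 76.2 CPM in KO2 (log2 fold change -2.81 ± 0.11 SE, adjusted p = 1.7e-10). The receptor gene RXRG had -2.27 and the synthesis enzyme gene ALDH1A3 -1.0. In the fits without each library there were 1, 1, 1 and 0 higher members. Of 12 tested Hedgehog genes 2 were lower and 1 higher, and leaving out each library left 1, 2, 2 and 1 and 1, 0, 0 and 0. The shares of Hedgehog genes lower and higher, 16.7% and 8.33%, were near or below those of all features, 14.5% and 13.5%. Of 21 tested Notch genes 3 were lower and 4 higher, and 3, 2, 2 and 2 and 2, 2, 3 and 2 were left. The Notch shares of 14.3% and 19% were also near those of all features.

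**Figure D4:**
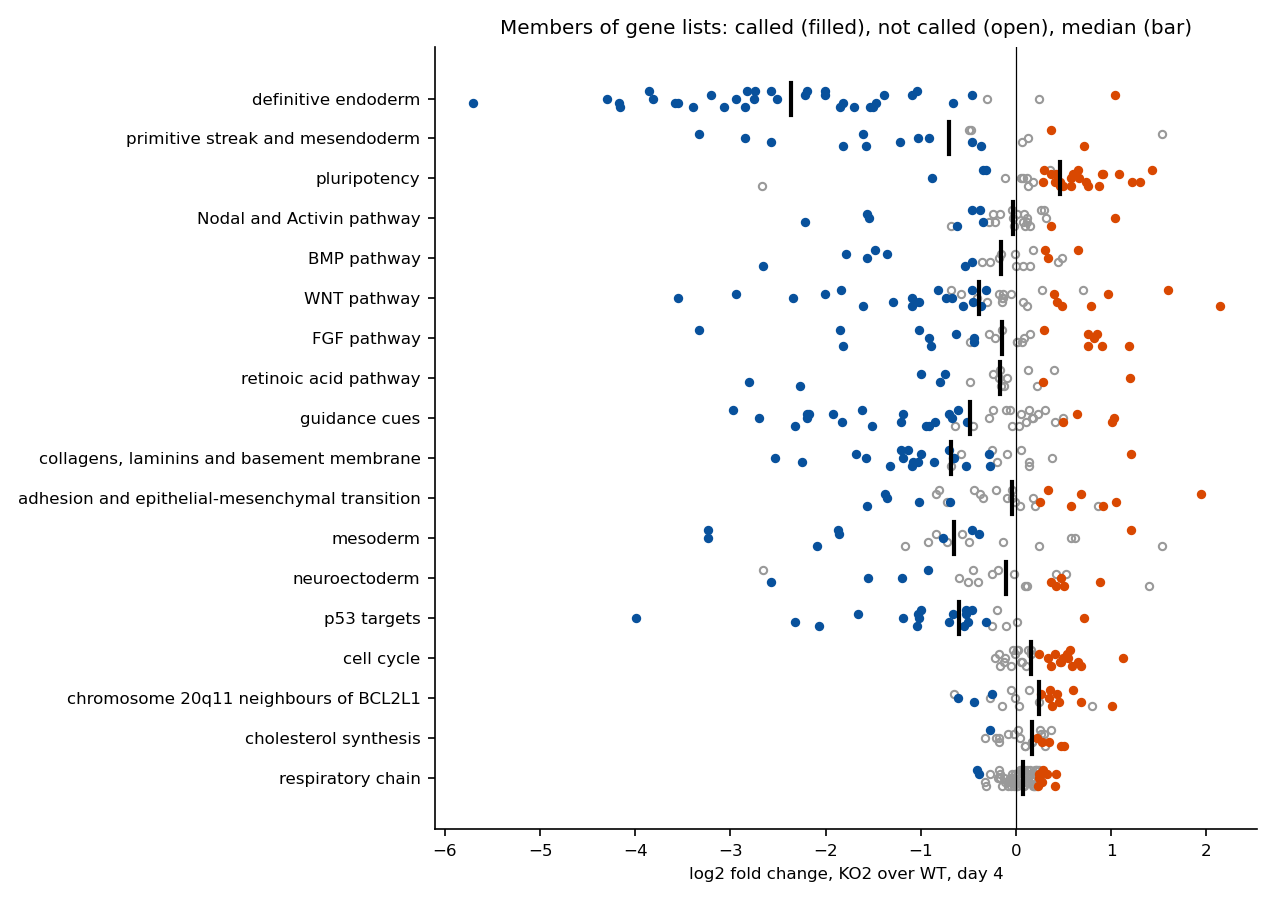
Log2 fold change of KO2 over WT at day 4 (horizontal axis) for each tested member of 18 gene lists, filled when called and open when not, with the list's median as a black bar. The definitive endoderm list has its median at -2.36, the pluripotency list at 0.46, the cell cycle list at 0.16 and the respiratory chain list at 0.077.

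Of the 32 lists examined, the pluripotency list held the most members called higher. All 33 were tested, 22 were higher in KO2 (66.7%) and 3 lower (9.09%), with a median of 0.46. Of all features 13.5% were higher and 14.5% lower. Log2 fold changes in the list ranged from -2.67 to 1.43, and not every lower gene is described here. The summed level was 9416 to 9821 CPM in WT and 11979 to 12000 CPM in KO2 at day 4, and 13346 to 13497 CPM in WT at day 0. SOX2, the partner of OCT4, was at 105 and 118 CPM in WT and 166 and 168 CPM in KO2 (log2 fold change 0.58 ± 0.14 SE, adjusted p = 0.0072), a call that was lost without WT replicate 1 (0.48, adjusted p = 0.0997). NANOG was at 47.8 and 45.2 CPM and 61.3 and 62.2 CPM (log2 fold change 0.41 ± 0.09 SE, adjusted p = 0.00405), and lost its call without WT replicate 2 (0.35, adjusted p = 0.058). The KO2 libraries of both genes were above the WT ones, as for 35.7% of all tested features. KLF4, a reprogramming factor, was at 2.21 and 2.38 CPM and 5.54 and 6.83 CPM (log2 fold change 1.43 ± 0.21 SE, adjusted p = 0.00015). TFAP2C, an AP-2 factor of naive and germ cells, had 1.30, PRDM14, a repressor of differentiation genes, 1.09 and ZFP42 (REX1) 0.91. DNMT3B, the de novo DNA methyltransferase of stem cells, was at 964 and 1119 CPM in WT and 1600.5 and 1559.6 CPM in KO2 (0.60), below its day 0 level of 2085 and 1989.9 CPM in KO2. The lower members included TDGF1 (-0.35) and GAL (-0.32), of which GAL lost its call without KO2 replicate 2 (-0.27, adjusted p = 0.077) and TDGF1 in all but the fit without WT replicate 2. Dropping each library left 15, 20, 21 and 20 higher members.

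The 15 largest increases among named genes with at least 5 CPM in KO2 included LEF1 and DACT1, described above. PKIB, an inhibitor of protein kinase A, was at 9.92 and 12.4 CPM in WT and 56.2 and 53.7 CPM in KO2 (log2 fold change 2.29 ± 0.13 SE, adjusted p = 1.1e-08), and already differed at day 0. CHCHD2, a mitochondrial protein gene with processed copies elsewhere in the genome, was at 7.78 and 7.35 CPM and 24.2 and 30.8 CPM (log2 fold change 1.87 ± 0.14 SE, adjusted p = 1.7e-07). Undifferentiated cells held 12.5 and 11.2 CPM in WT and 22.1 and 24.7 CPM in KO2. CSH2, a placental lactogen gene whose reads may be shared with its near-identical relatives, was at 0.153 and 0.387 CPM and 4.49 and 5.96 CPM (log2 fold change 4.19 ± 0.42 SE, adjusted p = 6.8e-06). CDH6, a type II cadherin, was at 5.03 and 6.25 CPM and 21.2 and 22.6 CPM, and EBF2, a helix-loop-helix factor, at 3.74 and 3.48 CPM and 12.4 and 13.4 CPM. THBS2, a matricellular thrombospondin, had 1.70 ± 0.15 (SE, adjusted p = 7.8e-07), and POSTN, the matrix protein periostin, 1.63. A further 4 genes were at higher levels in undifferentiated cells than in either line at day 4. LPAR3, a lysophosphatidic acid receptor, was at 20.4 and 19.6 CPM in WT at day 0, 2.36 and 2.13 CPM in WT and 8.10 and 7.96 CPM in KO2 at day 4. NPTX2, a pentraxin, had 33.7 and 31.4, 3.89 and 3.54 and 11.7 and 12 CPM in the same order. The potassium channel genes KCNMA1 (13.2 and 13.1, 1.37 and 1.80 and 5.70 and 4.48 CPM) and KCNN2 (23.3 and 19.6, 5.03 and 6.32 and 17.6 and 17.1 CPM) followed the same order. LPPR4, a membrane protein related to lipid phosphatases, had 1.76 and CPNE7, a copine, 1.62. In KO1 at day 4, PKIB was at 104 and 109 CPM, above KO2. DACT1 (165 and 170 CPM), LEF1 (4.57 and 3.78 CPM) and CHCHD2 (25.2 and 27.2 CPM) were also above WT in KO1. In contrast CPNE7 (2.76 and 4.33 CPM), KCNN2 (3.62 and 4.13 CPM) and EBF2 (2.33 and 3.03 CPM) were below both WT libraries in KO1.

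Of 29 genes for collagens, laminins and other basement membrane proteins 19 were lower and 1, NID2, was higher (1.21), with a median of -0.68. These were 65.5% and 3.45%, against 14.5% lower and 13.5% higher of all features. The basement membrane collagens COL4A1, COL4A2, COL4A5 and COL4A6 had log2 fold changes of -1.13, -1.09, -1.08 and -1.19. COL9A2, a cartilage-type collagen, was at 41.0 and 33.7 CPM in WT and 6.58 and 6.36 CPM in KO2 (log2 fold change -2.53 ± 0.20 SE, adjusted p = 2.4e-07). TNC, the matrix glycoprotein tenascin C, was at 739 and 582 CPM and 156 and 123 CPM (-2.25), and COL5A2 at 1212 and 1085 CPM and 525 and 468 CPM (-1.21). Among the laminins LAMA5 had -0.66, while LAMA1 (0.06), LAMB1 (-0.09) and LAMC1 (0.14) did not pass the test. Of 27 adhesion genes 5 were lower and 7 higher, and leaving out each library left 4, 5, 4 and 6 higher ones. With all libraries the adhesion shares were 18.5% lower and 25.9% higher, and the share lower was near that of all features. The epithelial keratin KRT8, which overlaps KRT18, was at 716 and 647 CPM and 231 and 228 CPM (log2 fold change -1.57 ± 0.08 SE, adjusted p = 2.5e-09), and the fibronectin receptor subunit ITGA5 had -1.38. N-cadherin (CDH2) was at 842 and 773 CPM in WT and 408 and 388 CPM in KO2 (-1.02), and E-cadherin (CDH1) at 325 and 344 CPM and 495 and 508 CPM (0.58).

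Axon guidance cues, which also steer migrating cells in the embryo, were lower in 19 of 40 genes and higher in 4, with a median of -0.48. These were 47.5% and 10%, against 14.5% lower and 13.5% higher of all features. The semaphorin SEMA3E was at 45.1 and 37.6 CPM in WT and 5.30 and 5.22 CPM in KO2 (log2 fold change -2.97 ± 0.16 SE, adjusted p = 4.8e-09). Its relatives SEMA6D and SEMA5A had -2.32 and -2.18, and the plexin receptors PLXNA2 and PLXNA4 -2.70 and -2.20. The netrin genes NTN4 and NTN1 had -2.20 and -1.83, and the Eph receptor genes EPHB3 and EPHA4 -1.62 and -1.51. The ephrin EFNB2 was higher, at 118 and 122 CPM in KO2 and 56.8 and 62.2 CPM in WT (1.01). Leaving out each library left 2, 2, 3 and 3 higher members.

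Markers of other cell types that the cultures could hold were counted next. Of 28 mesoderm genes 20 were tested, 8 were lower and 1, CDX4, was higher (1.21, adjusted p = 0.0082), a call lost without WT replicate 1 (1.10, adjusted p = 0.0696) and without KO2 replicate 2 (0.89, adjusted p = 0.15). With each library left out there were 6, 5, 6 and 5 lower members. The mesoderm list summed to 486 to 513 CPM in WT and 223 to 259.6 CPM in KO2. HAS2, a hyaluronan synthase, made up the larger part of the WT sum. It was at 311 and 279 CPM in WT and 92.1 and 70.2 CPM in KO2 (-1.86), and TBX3 was at 10.5 and 7.60 CPM and 0.883 and 1.00 CPM. Of 30 neuroectoderm genes 22 were tested, 5 were higher and 4 lower, and the list summed to 1228 to 1236 CPM in WT and 1454 to 1464 CPM in KO2. SOX3, a SOX2 relative of neural progenitors and stem cells, was higher at 17.0 and 18.1 CPM against 9.84 and 9.22 CPM (0.89). LHX5, a LIM homeodomain factor of the forebrain, was lower (-2.58). Omitting each library left 3, 5, 5 and 4 higher and 3, 5, 4 and 2 lower members. Trophoblast and amnion genes summed to 27.8 to 34.2 CPM in WT and 20.4 to 21.4 CPM in KO2, liver genes to 339.9 to 345 CPM and 192 to 201 CPM, and endothelial genes to 611 to 625 CPM and 574 to 604 CPM. Their calls were 2 lower of 10 tested, 6 lower and 1 higher (RBP4, 1.2) of 14, and 5 lower and 2 higher of 16. The call of RBP4 was lost without WT replicate 2 (0.94, adjusted p = 0.13) and without KO2 replicate 2 (1.12, adjusted p = 0.096). In the fits without each library there were 1, 2, 2 and 1 lower trophoblast and amnion genes and 1, 1, 1 and 1 higher endothelial genes. Blood cell genes summed to 43.7 to 50.1 CPM in WT and 35.7 to 40.1 CPM in KO2. Of 5 tested blood cell genes 2 were lower and 1 higher. Of the markers in these lists, HBZ, EMCN, EN2 and WNT6 had no count in the 4 libraries. Of 39 HOX genes 4 were tested, and their summed level was at most 3.28 CPM in KO2. Of all tested features 14.5% were lower and 13.5% higher. The shares lower and higher were 40% and 5% for mesoderm, 18.2% and 22.7% for neuroectoderm and 20% and 0% for trophoblast and amnion. They were 42.9% and 7.14% for liver, 31.2% and 12.5% for endothelial and 40% and 20% for blood cell genes. The neuroectoderm share lower and the endothelial share higher were near those of all features. The part of other cell types in the endoderm differences was not tested.

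Of 22 p53 target genes 17 were lower and 1, PLK2, was higher, with a median of -0.60. These were 77.3% and 4.55%, against 14.5% lower and 13.5% higher of all features. The list summed to 1739 to 1923 CPM in WT, 1450 to 1473 CPM in KO1 and 1388 to 1397 CPM in KO2 at day 4. Against KO1, 7 were lower in KO2 and 1 higher, with a median of 0.16. CDKN1A, which encodes the cell cycle inhibitor p21, was at 43.3 and 63.7 CPM in WT and 13.9 and 11.7 CPM in KO2 (log2 fold change -2.07 ± 0.18 SE, adjusted p = 7.6e-07). GDF15, a stress-induced cytokine, was at 2.98 and 4.19 CPM and 0.160 and 0.268 CPM (log2 fold change -3.99 ± 0.39 SE, adjusted p = 2.9e-06), and the antiproliferative BTG2 at 61.2 and 60.4 CPM and 13.6 and 10.8 CPM. In both, the KO2 libraries lay below the WT ones, as for 33.4% of all tested features. PLK2 lost its call without WT replicate 1 (0.50, adjusted p = 0.082) and without KO2 replicate 2 (0.59, adjusted p = 0.055). Of 30 cell cycle genes 14 were higher (46.7%) and 0 lower by edgeR, with 0 lower at an unadjusted p below 0.05 and 0 by DESeq2. The cell cycle list summed to 6508 to 6611 CPM in WT, 7475 to 7544 CPM in KO1 and 7727 to 7737 CPM in KO2 at day 4. Against KO1, 7 of these genes were higher in KO2 and 6 lower. Cyclin D1 (CCND1) was at 168 and 181 CPM in WT and 376 and 386 CPM in KO2 (log2 fold change 1.13 ± 0.09 SE, adjusted p = 2.1e-07), while the proliferation marker MKI67 had -0.22 (adjusted p = 0.21). Higher members with a role in DNA replication included MCM2 (0.59), CDC6 (0.66) and PCNA (0.48). Dropping each library left 7, 9, 8 and 9 higher members.

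In the BCL2 family 6 of 16 genes were lower and 4 higher. These were 37.5% and 25%, against 14.5% lower and 13.5% higher of all features. The pro-apoptotic BMF (-1.09) and BBC3 (-1.03) were lower, and BCL2 was higher, at 7.62 and 7.70 CPM against 4.35 and 3.29 CPM (1.01). BCL2L1, an anti-apoptotic gene on chromosome 20q11, a region that cultured stem cells are known to gain, was at 106 and 113 CPM in WT and 141 and 140.4 CPM in KO2 (0.36), and its call was lost without WT replicate 1 (0.30, adjusted p = 0.072). Leaving out each library left 4, 5, 3 and 4 lower and 1, 3, 4 and 2 higher family members. Of 21 tested genes of this stretch of 20q11, BCL2L1 included, 42.9% were higher and 14.3% lower. The share lower was near that of all features. Of the 23 genes other than BCL2L1 20 were tested, 8 were higher and 3 lower, with a median of 0.19. With each library left out there were 4, 4, 5 and 5 higher and 2, 2, 2 and 1 lower ones. TPX2, a spindle protein, was at 464 and 452 CPM in WT and 582 and 607 CPM in KO2 at day 4, and at 300.4 and 312 CPM and 394 and 405 CPM at day 0. TM9SF4 was at 147.6 and 145 CPM in WT and 214 and 197 CPM in KO2 at day 0, and TPX2 and TM9SF4 were called higher at both days. Both day 0 calls were lost in each of the 4 fits that left out a WT or KO2 library of day 0 (adjusted p = 0.18 to 0.46 and 0.055 to 0.37). ASXL1 in the same stretch was lower at day 4 (-0.44), a call lost without KO2 replicate 2 (-0.43, adjusted p = 0.0502). The number of copies of the region was not measured.

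A few differences were called before differentiation. At day 0, 9 features were higher in KO2 (0.0536%) and 15 lower (0.0893%), and 791 had an unadjusted p below 0.05. The number called depended on the libraries: leaving out WT replicate 1, WT replicate 2, KO2 replicate 1 or KO2 replicate 2 of day 0 left 1 higher feature each and 4, 5, 1 and 3 lower ones, while leaving out the KO1 day 0 pair gave 69 and 51. PCDHB5 and PKIB were called in all 4 of the fits without a WT or KO2 library, MEG3 in 3 of them, and LRRC61, C7orf29 and PIWIL2 in 2. The other 18 were called in none of them, and CDKN1A, PHLDA3, CHCHD2, CBR1 and PEG3 are among these 18. Of the 24 features 18 were called in the same direction at day 4 and 2 in the opposite one, against 4697 called at day 4. PCDHB5, a clustered protocadherin of a family with similar sequences, was at 18.0 and 20.4 CPM in WT and 2.15 and 1.76 CPM in KO2 at day 0, and at 26.5 and 28.4 CPM and 1.85 and 2.14 CPM at day 4 (log2 fold change -3.77 ± 0.17 SE, adjusted p = 1.2e-09). MEG3, an imprinted long noncoding RNA, was at 7.17 and 9.04 CPM and 0.281 and 0.979 CPM at day 0. At day 4 it was at 1.53 and 1.87 CPM and 0.481 and 0.134 CPM, a call lost without KO2 replicate 2 (-1.81, adjusted p = 0.077). PEG3, another imprinted gene, was at 4.16 and 3.04 CPM in WT and 0.375 and 0.490 CPM in KO2 at day 0, and was at 0.534 and 0.451 CPM and 0.562 and 0.268 CPM at day 4. CBR1, a carbonyl reductase, was at 3.0 and 2.47 CPM and 0.0937 and 0.196 CPM at day 0 and at 2.44 and 2.38 CPM and 0.0802 and 0.335 CPM at day 4. LOC100506314 had no count in KO2 at either day and was at 1.98 and 1.22 CPM in WT at day 4. CDKN1A was lower at day 0 too, at 11.4 and 15.7 CPM against 28.9 and 27.5 CPM. PKIB was higher at day 0, at 74.8 and 84.8 CPM against 23.0 and 23.2 CPM. The 2 that changed side were LEPREL1, a collagen prolyl hydroxylase gene, and RASGRF2, an exchange factor. LEPREL1 was higher at day 0 (131 and 130.2 CPM against 77.7 and 86.3 CPM) and lower at day 4 (134 and 109 CPM against 504 and 436 CPM). RASGRF2 was lower at day 0 (18.5 and 22.0 CPM against 29.9 and 33.3 CPM) and higher at day 4 (136 and 136 CPM against 74.6 and 84.7 CPM). In KO1 at day 0 the mean CPM lay nearer KO2 than WT for most of the 24 features. Examples were PCDHB5 (2.67), MEG3 (0.336), PEG3 (0.288), CBR1 (0.451), CDKN1A (11.1), CHCHD2 (23.0) and PKIB (84.5). The KO1 mean lay near WT for TPX2 (320) and ANKLE1 (5.93), and in between for TM9SF4 (173) and RASGRF2 (26.5). KO1 was not tested against WT.

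**Figure D5:**
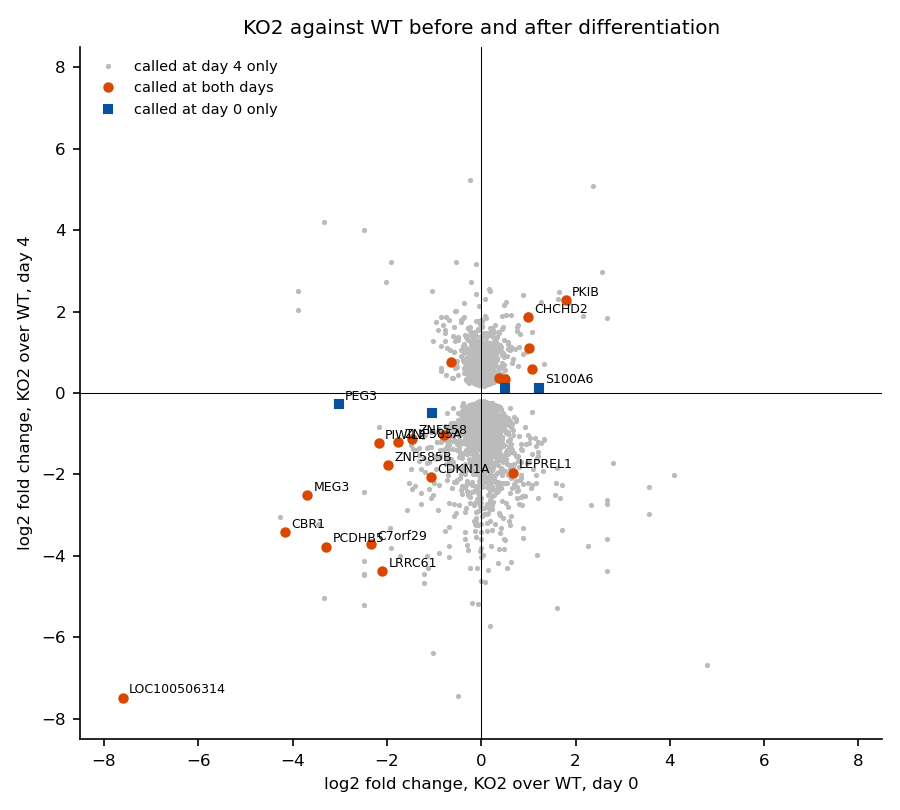
Log2 fold change of KO2 over WT at day 4 (vertical axis) against that at day 0 (horizontal axis), from separate libraries, for features called at either day. Of the 24 features called at day 0, PCDHB5, CBR1 and MEG3 lie to the lower left and PKIB and CHCHD2 to the upper right, while the features called at day 4 only spread mostly up and down near 0 on the day 0 axis.

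The difference between the days was tested directly. The log2 difference of KO2 from WT was higher at day 4 than at day 0 in 1070 features (6.37%) and lower in 1259 (7.5%). Leaving out 1 of the 8 libraries of these groups left 447 (without WT day 4 replicate 1) to 739 (without WT day 0 replicate 1) higher and 737 (without KO2 day 4 replicate 2) to 1091 (without WT day 0 replicate 1) lower, and leaving out the KO1 day 0 pair gave 2099 and 2156. Of the 4697 features called at day 4, 2239 (47.7%) also had a called day difference of the same sign. Of the 36 tested definitive endoderm genes 30 had a called lower value, and the 6 without one were FOXA3, PRDM1, ANXA3, FST, APOA2 and GATA3. At day 0 none of the 36 was called by edgeR, with 3 higher and 1 lower at an unadjusted p below 0.05 and 1 higher by DESeq2. Several of these genes had few counts at day 0, so a difference could hardly be called for them. GATA6 had 1 count in the WT libraries and 5 in KO2, GATA4 6 and 4, and LINC00261 5 and 4. Of the 33 pluripotency genes 20 had a called higher value at day 4 than at day 0 and 1 a lower one. Of the 22 p53 targets 6 had a called lower value, and at day 0 the list held 2 called lower genes, CDKN1A and PHLDA3, with 15 lower at an unadjusted p below 0.05.

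KO2 was then set beside KO1, the other knockout line, in a test of the difference between the lines at day 4. In this comparison 1810 features were higher in KO2 (10.8%) and 2404 lower (14.3%). Leaving out KO1 replicate 1, KO1 replicate 2, KO2 replicate 1 or KO2 replicate 2 of day 4 left 723, 1047, 1003 and 838 higher and 1423, 1742, 1664 and 1447 lower, and leaving out the KO1 day 0 pair gave 2837 and 3276. The comparisons of KO2 with WT and with KO1 share the KO2 libraries. Of the definitive endoderm genes 29 of 36 were lower in KO2 than in KO1 and FST was higher. SOX17 was at 103 and 110.1 CPM in KO1, a log2 fold change of KO2 over KO1 of -2.69 (adjusted p = 7.2e-09), and GATA4 at 32.6 and 29.6 CPM (-2.45). CER1 was at 4536 and 4445 CPM in KO1, against 4188 and 3875 CPM in WT (-2.37, adjusted p = 1.2e-07). GATA6 was at 175 and 174 CPM in KO1 and 198 and 174 CPM in WT (-2.66). CXCR4 was at 53.2 and 58.1 CPM in KO1, between WT and KO2. MIXL1 was at 144 and 147 CPM in KO1, above both WT and KO2 (-2.31, adjusted p = 1.3e-08). LEFTY1, at 125 and 160.1 CPM in KO1, and LEFTY2, at 73.5 and 94.4 CPM, did not pass the test between the lines (-0.12 ± 0.19 and 0.45 ± 0.18, SE). T (-0.33 ± 0.15) and NODAL (-0.21 ± 0.10) did not pass it either. FST was at 44.4 and 48.6 CPM in KO1 and 45.5 and 46.3 CPM in WT, and differed between the lines by 1.03 (adjusted p = 4.6e-06). POU5F1 was at 385 and 398 CPM in KO1 (0.46), and 18 of 33 pluripotency genes were higher in KO2 than in KO1.

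In cholesterol synthesis the differences of KO2 from KO1 were larger than those from WT. Of 23 genes 5 were higher and 1 lower in KO2 than in WT, with a median of 0.16, while 22 were lower and 1, PMVK, higher in KO2 than in KO1, with a median of -1.51. The summed level was 4604 to 4863 CPM in WT, 5026 to 5588 CPM in KO2 and 13567 to 14601 CPM in KO1. HMGCS1, an early enzyme of the pathway, was at 504 and 560.4 CPM in WT, 674 and 837 CPM in KO2 and 2830.4 and 2720.0 CPM in KO1. Its call against WT was lost without WT replicate 1 (0.42, adjusted p = 0.074) and without KO2 replicate 2 (0.34, adjusted p = 0.088). Omitting each library left 0, 3, 6 and 1 higher and 1, 0, 0 and 1 lower than in WT. Genes of the ATF4 stress response, which responds to amino acid shortage, were higher than in WT in 5 of 23, among them the serine synthesis gene PSAT1 (0.47), and lower than in KO1 in 14. In the fits without each library there were 2, 3, 2 and 3 higher than in WT. Respiratory chain genes were higher than in WT in 8 of 74 (10.8%) and lower in 2 (2.7%). Both shares were below those of all features, 13.5% higher and 14.5% lower. Fewer were called higher in each fit that left out a library.

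Genes were also classed by the time course of KO1, whose libraries are not part of the difference between KO2 and WT. Classes were formed after the data had been seen, from genes that changed at least 2-fold and were called between day 0 and day 4 of KO1. Of 1537 genes that rose in KO1, 588 were lower in KO2 than in WT at day 4 (38.3%) and 132 higher (8.59%), with a median of -0.36. Of 2254 genes that fell in KO1, 208 were lower (9.23%) and 294 higher (13%), with a median of 0.042. Of the other 13001 genes 12.6% were lower and 14.2% higher. Without KO1 day 0 replicate 2, 1 of the pair that stood apart, 740 of the genes that rose were lower and 347 of those that fell were higher. The count of 294 was 151 without WT replicate 1, 185 without KO2 replicate 1 and 180 without KO2 replicate 2 of day 4.

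Part of the features carry only an assembly ID from transcript reconstruction and no gene name. Of the SCRIPTURE models 763 were tested, with 67 lower and 33 higher, and of the 48HRS models 225, with 27 lower and 11 higher. Both kinds held smaller shares of called features each way than the 14.5% lower and 13.5% higher of all features. SCRIPTURE_48HRS_65758 was at 6.48 and 6.06 CPM in WT and 0.321 and 0.0669 CPM in KO2 (log2 fold change -5.03 ± 0.47 SE, adjusted p = 3.0e-06). SCRIPTURE_48HRS_62629 was at 8.93 and 8.57 CPM in WT and 0.883 and 1.07 CPM in KO2 (log2 fold change -3.14 ± 0.24 SE, adjusted p = 2.5e-07). The 2 on the higher side, SCRIPTURE_48HRS_21621 (0.80) and 48HRS.42474.1 (0.74), lost their calls when 1 library was left out. For SCRIPTURE_48HRS_21621 this was so without WT replicate 1 (0.59, adjusted p = 0.17) and without KO2 replicate 1 (0.62, adjusted p = 0.14). For 48HRS.42474.1 it was so without WT replicate 1 (0.70, adjusted p = 0.078), without WT replicate 2 (0.75, adjusted p = 0.0599) and without KO2 replicate 1 (0.60, adjusted p = 0.11). The files do not pair these IDs with gene names.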

How the data were processed

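The deposited files hold raw counts for each feature of 12 RNA-seq libraries. The authors aligned reads to hg19 with Bowtie2 2.1.0 and counted them with HTSeq 0.6.1, per the submitters' processing notes. Libraries were made with a stranded poly(A) kit, per the labels' protocols. No source used here gives the annotation, the strand setting or the mapping quality limit. In the 4 libraries compared, 29.4% to 30.5% of reads lay outside features, 19.7% to 19.9% had low mapping quality and 1.17% to 1.21% were ambiguous. These rows were left out.

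Counts were scaled with TMM factors (0.972 to 1.01 in these 4 libraries), filtered with filterByExpr and fitted with edgeR's quasi-likelihood test (edgeR 4.0.16, R 4.3.3) to all 12 libraries in 6 groups, which leaves 6 residual degrees of freedom. P values were adjusted by Benjamini-Hochberg over 16792 features, with a threshold of 0.05. SE values were derived from each log2 fold change and its F statistic. DESeq2 1.42.0, other scalings, filters, sample sets, a replicate block and leaving out libraries were alternatives. Intervals and floors cover counting error only.

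The members, the gene lists and the tests were chosen with earlier results of these data known, so no list's direction is independent evidence. Named genes are the 15 largest called changes each way (no overlap between libraries, mean CPM of the higher group 5 or more), 18 lineage genes, each list's largest called change each way (at least 1 CPM), further members of counted lists, and 2 features with an assembly ID each way. RefSeq promoters (GRCh38.p14) were matched by symbol, and hg19 positions were not used. The 8 ChIP-seq samples were not analysed here. Results that need certain withheld items are left out.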

Additional observations from a re-analysis of the deposited data

Results flagged for a closer look

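For 66 of the 98 named genes the difference of KO2 from WT at day 4 differed from that at day 0 by edgeR's interaction test (adjusted p below 0.05), of which 64 are given here. Each value is the day 4 log2 fold change minus the day 0 one. Where a gene had almost no counts at day 0, its size depends on the small prior count of the fit and is no measure of fold. No other kind of deviation was looked for within groups, because 2 libraries a group are too few.

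Among lineage genes, lower values were -3.53 (SOX17), -2.77 (FOXA2), -3.24 (GATA4), -5.07 (GATA6), -2.97 (HHEX), -4.25 (GSC), -4.79 (CXCR4), -3.38 (CER1) and -2.49 (EOMES). Higher values were 1.00 (NODAL), 0.50 (POU5F1) and 0.62 (NANOG). The largest decreases gave -4.95 (VWF), -4.06 (COLEC12), -4.84 (ARHGAP24), -4.21 (LINC00261), -4.52 (CCKBR), -4.02 (C3), -5.16 (PLCE1), -3.03 (SLC5A9), -3.84 (MOBP) and -2.27 (LRRC61).

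The largest increases gave 7.53 (CSH2), 2.19 (LEF1), 0.96 (CDH6), 0.88 (CHCHD2), 1.74 (LPAR3), 1.82 (LPPR4), 1.73 (THBS2), 1.39 (NPTX2), 1.64 (KCNMA1), 1.60 (POSTN), 1.86 (CPNE7), 1.87 (DACT1) and 1.41 (KCNN2). CHCHD2 was also called higher at day 0, a call lost in each of the 4 fits that left out a WT or KO2 library of day 0 (adjusted p = 0.067 to 0.21).

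Among signalling, matrix and guidance genes the values were -3.10 (BMP2), -3.74 (FGF17), 1.26 (FGF19), -3.45 (LGR5), -3.37 (CYP26A1), -3.03 (SEMA3E), -2.76 (COL9A2), -1.56 (KRT8), -5.06 (ANKRD1) and 0.76 (CYR61). Markers of other lineages gave -3.12 (TBX3), -3.35 (LHX5), 1.10 (SOX3), 0.80 (FLT1) and 1.03 (LCP1). Stem cell genes gave 1.23 (KLF4) and 0.73 (DNMT3B).

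Genes of the cell cycle, survival, metabolism and chromosome 20q11 gave 0.96 (BCL2), -1.47 (BMF), -2.20 (BNIP3), -0.61 (C20orf112), 1.35 (CCND1), -2.85 (GDF15), 0.56 (HK2), 1.25 (PLK2), 0.60 (PSAT1) and 0.63 (SDHD). Of the features with an assembly ID only, the values were 0.94 (SCRIPTURE_48HRS_21621) and -2.99 (SCRIPTURE_48HRS_62629).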

How the results depend on the processing

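No named gene changed direction in any alternative run that tested it. The balance of counts could change side. With only the libraries compared, the difference between days gave 2127 higher and 1971 lower features, against 1070 and 1259 in the main fit. All 98 named genes kept their call at day 4 with upper-quartile or RLE scaling, without the filter on low counts, with only the libraries compared and without the KO1 day 0 pair. DESeq2 gave 1844 higher and 1894 lower features at day 4 and lost 3 of the 98, HEY1 and RBP4 among them. When 1 library was left out, 84 (without WT replicate 1), 88 (without WT replicate 2), 94 (without KO2 replicate 1) and 83 (without KO2 replicate 2) of the 98 stayed called. Day 4 counts then ranged over 943 to 1298 higher and 1412 to 1880 lower features, and higher features made up 37.8% of the calls without WT replicate 1 against 48.2% with all libraries.

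The day 0 counts moved most. They were 60 higher and 53 lower without the filter, 61 and 44 with only the libraries compared, 69 and 51 without the KO1 day 0 pair and 15 and 21 by DESeq2, and without 1 library there was 1 higher and there were 1 to 5 lower. The difference between days gave 2127 higher and 1971 lower with only the libraries compared, 2099 and 2156 without the KO1 day 0 pair and 447 to 739 and 737 to 1091 without 1 library. KO2 against KO1 gave 3240 higher with only the libraries compared, 2837 without the KO1 day 0 pair, and 723 to 1047 higher and 1423 to 1742 lower without 1 library. Genes that fell in KO1 and were higher in KO2 numbered 151 to 347 without 1 library, and those that rose and were lower 426 to 740. Fits without a library have fewer samples, and other causes of these shifts were not tested.

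Whether replicate numbers pair the samples is not known. Deviations of same-numbered WT and KO2 libraries at day 4 had a correlation of 0.0274, and over all pairs of groups -0.0403 to 0.155. These values cannot exclude pairing, because counting error enters each deviation. With the replicate block the counts were 2526 higher and 2584 lower at day 4, 10 and 17 at day 0, 1258 and 1393 for the difference between days and 2064 and 2538 against KO1, and all 98 named genes kept their call. With 2 libraries a group and a floor of 0.193 to 0.241 CPM, small changes of low genes were not detectable at this depth.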

Other observations

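Of all tested features 14.5% were lower and 13.5% higher in KO2 at day 4. Of 17 YAP and TEAD target genes 5 were lower and 5 higher, and leaving out each library, in the order used above, left 2, 5, 3 and 2 lower and 3, 2, 2 and 1 higher. ANKRD1, a muscle-type ankyrin repeat protein, was at 33.9 and 20.2 CPM in WT and 2.49 and 2.74 CPM in KO2 (log2 fold change -3.36 ± 0.24 SE, adjusted p = 9.4e-08), while CYR61, a secreted matrix-associated protein, was at 196 and 198 CPM and 256 and 298 CPM (log2 fold change 0.49 ± 0.08 SE, adjusted p = 0.00035). The 2 targets thus moved in opposite directions. Of 25 tested glycolysis and hypoxia genes 5 were lower and 6 higher, with 4, 5, 4 and 4 and 2, 3, 2 and 4 left. The shares lower and higher were 29.4% and 29.4% for the YAP and TEAD targets and 20% and 24% for these genes. The hexokinase gene HK2 (0.76) and the glucose transporter SLC2A1 (0.67) were higher. The glucose transporter SLC2A3 (-0.83), the pyruvate kinase gene PKM (-0.80) and the mitophagy gene BNIP3 (-1.26) were lower.

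Of 55 tested clustered protocadherins, whose sequences are similar and may share reads, 9 were lower and 3 higher, with 5, 4, 2 and 4 and 2, 1, 2 and 1 left. With all libraries the shares, 16.4% and 5.45%, were near or below those of all features. Beside PCDHB5, PCDHGA11 was at 13.5 and 14.3 CPM in WT and 3.05 and 3.75 CPM in KO2 (-2.02), and PCDHGA10 at 3.66 and 3.42 CPM and 8.67 and 10.6 CPM (1.45). Single members of the cluster thus differed each way. Of 23 tested imprinted genes 4 were lower and 2 higher, with 5, 3, 3 and 2 and 1, 2, 2 and 2 left. With all libraries the shares were 17.4% and 8.7%, also near or below those of all features. CDKN1C, a cell cycle inhibitor, was at 13.0 and 12.3 CPM in WT and 4.17 and 5.62 CPM in KO2 (-1.36), and NNAT, neuronatin, at 29.5 and 30.0 CPM and 56.9 and 54.7 CPM (0.91). Of 15 tested genes of DNA methylation 4 were lower and 4 higher, with 1, 3, 3 and 3 and 2, 2, 2 and 2 left. The demethylase gene TET1 was higher (0.59), and TET2 was lower (-0.66), a call lost without WT replicate 1 (-0.52, adjusted p = 0.082).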
